A study of Bos taurus with 2 samples.

Results

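The genes described here are interferon-stimulated genes, which cells switch on when an interferon binds its receptor. They were taken as all non-control probes of the array filed under 10 gene names, ISG15, MX1, MX2, IFI6, IFI27, IFI44, IFIH1, DDX58, RSAD2 and IRF7. Of these names, 9 were found among the 32429 gene names of the array, with 21 probes in all, and no probe was filed under IFI44. Testis RNA came from crossbred bulls, Holstein Friesian crosses with 50 to 75% exotic inheritance, and from Zebu bulls of the Tharparkar breed. The bulls were 24 months old, the RNA of 3 animals per group was combined, and 1 Cy3 bovine expression array was run for each group. The comparison asks which transcripts differ between crossbred and Zebu testis. With 1 array of pooled RNA per group no difference has a replicate check, no test was run, and precision is limited by the number of arrays.

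Type I interferons signal through the receptor chains IFNAR1 and IFNAR2 to the kinases JAK1 and TYK2, which activate transcription factors such as STAT2. Together with IRF9, STAT2 acts at the promoters of the stimulated genes. The products act against viruses in different ways. Some sense viral RNA, some block viral replication or modify proteins, and IRF7 feeds back on the production of interferon itself. In the testis such genes are known from the somatic cells in particular, including Sertoli and Leydig cells and macrophages.

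Signals are intensities as processed by the scanner's software. Normalized log2 signals are relative to the 75th percentile of the probes of the array, which is set to 0 and corresponded to signals of 1176 (crossbred) and 1233 (Zebu). Differences are log2 values, crossbred minus Zebu, so negative ones are lower in crossbred testis. Where a gene had several probes, the brightest over both arrays gave its value. Between replicate spots of the same probe the difference had an SD of 0.33, from 5962 probes with several spots, and this SD covers spotting and scanning only. Between different probes of the same gene the SD was 0.51, over 8185 genes. The threshold for a call was a difference of 1.5 or more in size, a linear fold of 2.83, and genes on a side of 0 are counted apart from it.

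The probes are designed sequences of 60 bases, and 30 bases of each probe shown are printed 5′ to 3′. The pair of ISG15 probes is shown because their agreement is partly built in. They overlap by 28 bases, which are in capitals.

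ISG15, gene value: tgGATGATGAGCACCCGCTGGAGGAATACG
ISG15, other probe: GATGATGAGCACCCGCTGGAGGAATACGgc

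The IRF7 probes share 54 of their 60 bases, so they also count as nearly the same measurement. The probes of MX1 and DDX58 are shown because the results turn on them. They share no stretch longer than 8 bases within a gene, and no part of them is capitalized.

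MX1, gene value: gtgccatacttgtgaatgcatacagaagcc
MX1, other measured probe: tagtctctgctgtctcttagtggataagca
DDX58, gene value: tatgcaaagtggaaggactttaattttgag
DDX58, probe from base 1067: gactattccatcactctccatctttacttt
DDX58, probe from base 1970: ctttctaaaacctggcatattgactggacg

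No probe filed under another name shared a run of 25 bases with a probe of the members. None of the 21 member spots lay in the dark patch of the crossbred array (rows 54 to 99, columns 35 to 46) or in its bright patch, and none was saturated.

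Most of the interferon-stimulated genes had less signal in crossbred than in Zebu testis. In the probe used, all 9 exceeded background well on either array. At 1.5 or more in size, 1 of the 9 was lower, MX1, against 2.05% of the 24751 detected gene names, and 0 were higher, against 6.61%. At a difference of 1 or more, 4 were lower, against 7.54% of all detected gene names, and 1 was higher, against 12.3%. In all, 7 of the 9 were below 0, against 52.8%. The median of the members was -0.84 and that of all detected gene names -0.05. Of the 16 member probes well above background on both arrays, 14 were below 0, with a median of -0.92 over the 16. The 16 include the overlapping probe pairs of ISG15 and IRF7, and the share of all probes of the array below 0 is not given beside this count.

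**Figure D1:**
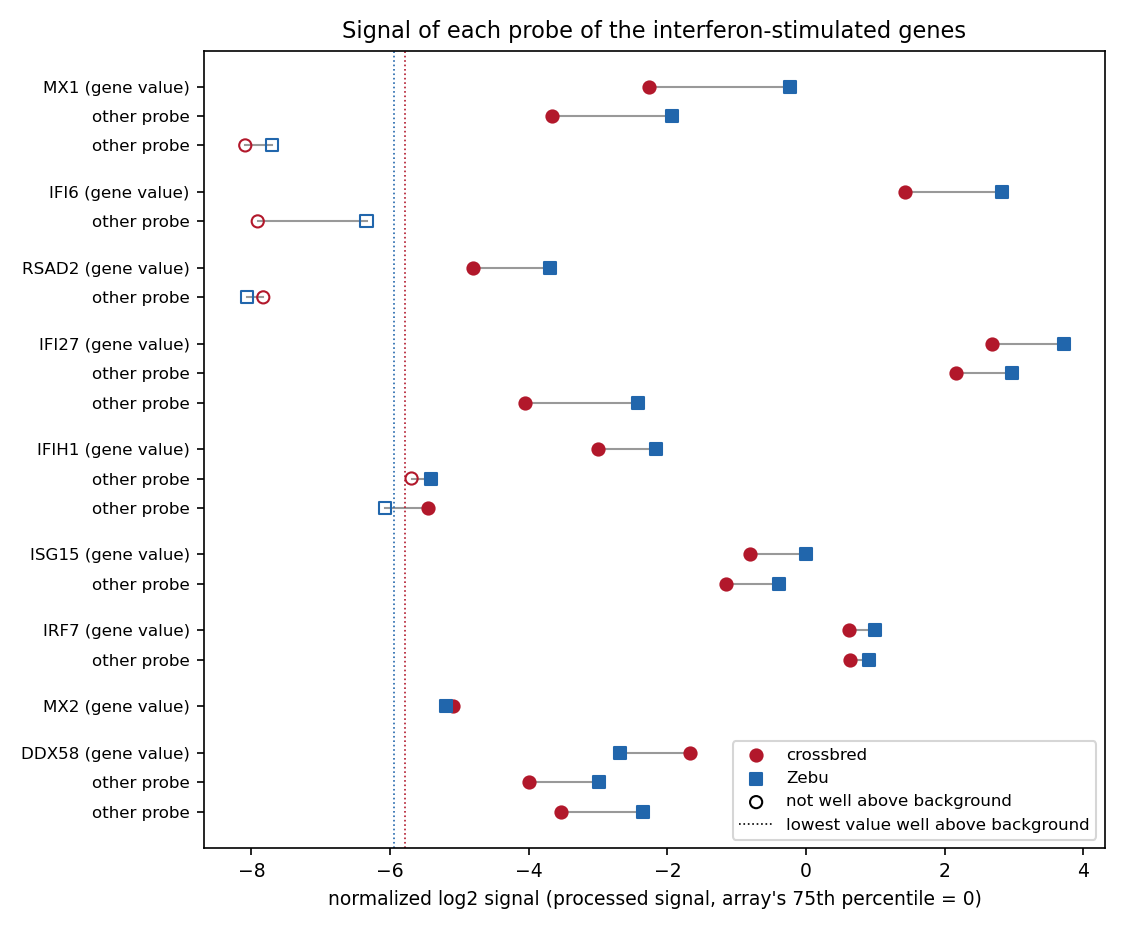
Normalized log2 signal of the 21 member probes on the crossbred array (circles) and the Zebu array (squares), with open symbols where the probe was not well above background and dotted lines at the lowest value well above background, -5.78 on the crossbred and -5.94 on the Zebu array. The crossbred symbol lies left of the Zebu symbol for most measured probes, and right of it for the gene-value probes of DDX58 and, slightly, MX2. It also lies right for the IFIH1 probe that was well above background on the crossbred array only.

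Among the effectors, MX1 had the lowest value as reported, although IFI6 was lower with the local trend of the array subtracted, -2.76 against -1.80. MX1 is a dynamin-like GTPase that blocks the replication of many RNA viruses. Its signal was 245 in crossbred and 1050 in Zebu testis, a difference of -2.03 or 4.10-fold lower, and 0.598% of all detected gene names had a lower value. Another probe had signals of 92.9 and 324, a difference of -1.73. They start at base 2358 of the transcript (chr1:144472241-144472300 on HGSC Btau 3.1) and at base 2161 (chr1:144472044-144472103), and their sequences are shown above. The third probe starts at base 99 and was not well above background on either array, so it gives no fold.

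MX2, the related GTPase, with its probe at chr1:144423490-144423549, did not share this difference. Its single probe had signals of 34.2 and 33.7, close to the lowest values well above background, and the difference of 0.09 was smaller than the SD between replicate spots.

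IFI6, a small membrane protein that acts against flaviviruses, had signals of 3168 and 8759, a difference of -1.40 or 2.64-fold lower. The probe lies at chr2:129864763-129864822. The nearest spots with a value, 17 of them, had a median difference of 1.31 in the other direction, the highest among the member spots, and with such a local trend subtracted at every spot and the arrays normalized again, the difference of IFI6 was -2.76. Its other probe is listed on the opposite strand and was not well above background on either array.

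IFI27 encodes another small membrane protein, one of the more strongly interferon-induced genes in blood. Its signal of 7529 in crossbred testis was below the 16294 in Zebu testis, a difference of -1.05. A probe close by at chr21:59052902-59052961 had 5298 and 9640, or -0.80. The third probe, farther upstream at chr21:59045150-59045209, had 71.2 and 228, or -1.61. All 3 probes of IFI27 were therefore below 0, between -1.61 and -0.80.

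ISG15 encodes a ubiquitin-like protein that is attached to other proteins after interferon exposure. Its signals were 668 and 1233 at chr16:48718914-48718973, a difference of -0.81, and the overlapping probe gave -0.76. RSAD2, also called viperin, an enzyme that makes a chain-terminating nucleotide, had 42.2 and 94.6 at chr11:92860213-92860272, a difference of -1.10. That signal is low, and after normexp background correction the difference was -0.52. The second RSAD2 probe was not well above background on either array.

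The RNA sensors had probes that differed in direction. IFIH1, also called MDA5, recognizes long double-stranded RNA. Its brightest probe had signals of 147 and 277, a difference of -0.84, but the nearest spots had a median of -0.78, and with the local trend subtracted in the same way the value was -0.12. With the mean of its probes it was -0.21. Of its 2 other probes, each was well above background on 1 array only. The probe at chr2:35326383-35326998, which spans an intron, was at least 1.21-fold lower in crossbred testis, and the probe at chr2:35282384-35282443 was at least 1.41-fold higher. The probes of IFIH1 thus lay on both sides of 0, but these 2 had low signals, 22.8 and 29.0 for the first and 27.0 and 18.2 for the second.

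DDX58, also called RIG-I, recognizes RNA with a 5′ triphosphate. Its probes, all well above background on both arrays, disagreed in direction. The probe with the highest mean signal, from base 2721 at chr8:11693221-11693280, had signals of 367 and 191, a difference of 1.01 or 2.01-fold higher in crossbred testis. The probe from base 1067 had 73.9 and 155, a difference of -1.0, and the probe from base 1970 had 102 and 242, a difference of -1.18. Each of these differences exceeded the SD between replicate spots. With the mean of its 3 probes DDX58 differed by -0.39 and with their median, which was added with the values already seen, by -1.0, so its direction depends on the probe. The median of the nearest spots was between -0.32 and -0.21 for all 3.

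IRF7, the transcription factor that amplifies interferon production, had signals of 1808 and 2470. The difference of -0.38 was only just larger than the SD between replicate spots, and the overlapping probe gave -0.28. The array lists no chromosome position for these probes. Of the 6 members with more than 1 detected probe, 4 had all detected probes on the same side of 0, MX1, IFI27, ISG15 and IRF7.

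**Figure D2:**
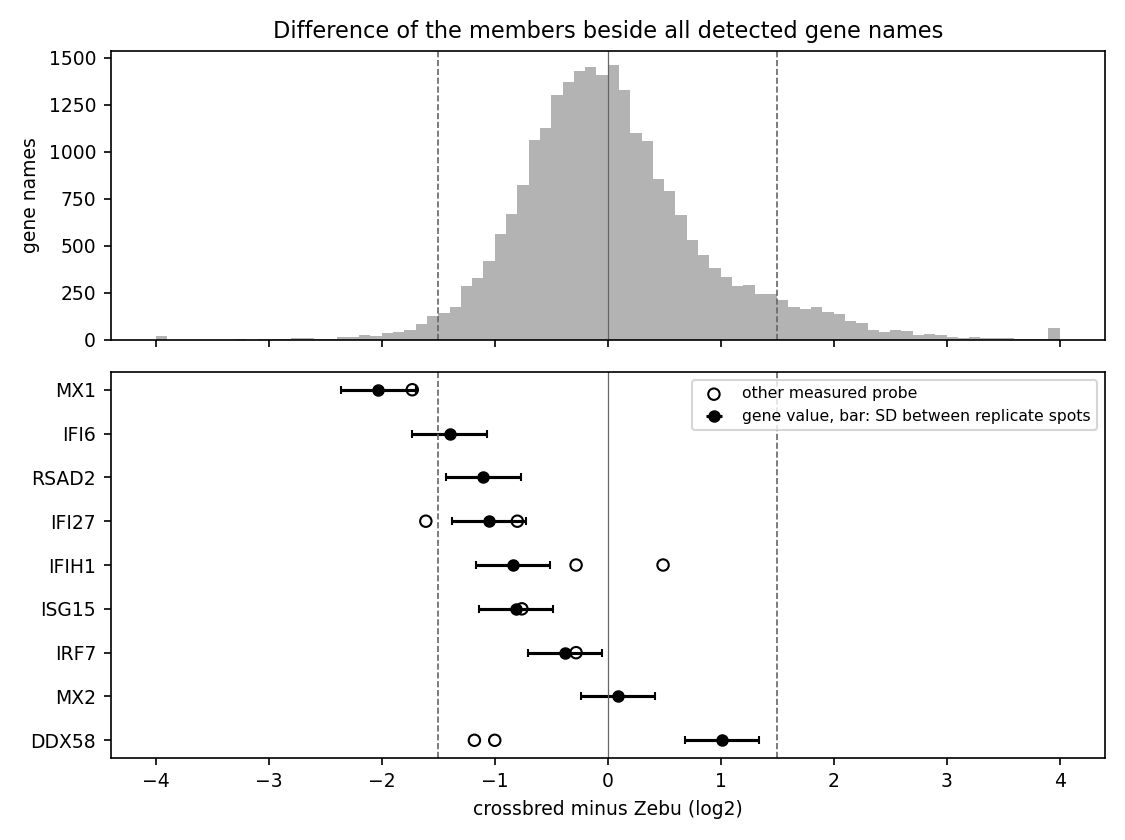
Crossbred minus Zebu difference (log2) of 24751 detected gene names (top, histogram, with values beyond 4 in the end bars) and of the 9 members (bottom, filled circles with the SD of 0.33 between replicate spots, open circles for other detected probes), with dashed lines at 1.5 in size. MX1 at -2.03 is the only filled circle past the lower line, and open circles of MX1 (-1.73) and IFI27 (-1.61) are also past it. The open circles of DDX58 lie on the other side of 0 from its filled circle.

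Probes that the array describes as interferon-induced protein 44 are filed under accessions and lie outside the 10 names, and they were chosen by their description after the data were seen. The IFI44 probe had signals of 38.6 and 49.5, a difference of -0.29. Of 5 probes described as IFI44L or as its closest match, 3 were measured in both groups, with differences of -1.12, -1.56 and -1.32, 1 was at least 2.06-fold lower and 1 was not well above background on either array.

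The genes upstream of the members were measured with the same rule. Of 27 interferon ligands, 10 were matched on the array and 4 were detected. IFNB3, a type I interferon, had log2 signals after normalization of -2.41 (crossbred) and -5.62 (Zebu), a difference of 3.21, from its only probe. The Zebu value was close to the lowest value well above background on that array, -5.94, which limits the size of this difference. IFNG, the type II interferon of T and NK cells, differed by -1.51 and its other probe by -0.18. IFNT3, a trophoblast interferon of ruminants, differed by 0.18, and IFNW1 was at least 1.49-fold higher in crossbred testis. The other 6 ligands on the array were not well above background on either array. The median of the 10, with these at 0, was 0.00.

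Of the 6 receptor chains, 4 were detected, and all 4 were below 0, against 52.8% of all detected gene names, with 0 of them at -1.5 or lower. IFNAR2, a chain of the type I receptor, differed by -1.13 and its other probe by -0.86. IFNGR1 and IFNGR2, which bind interferon gamma, differed by -0.70 and -0.60. IL10RB, shared by the receptors of interferon lambda and interleukin 10, differed by -0.81. For each of the 4, every other detected probe was on the same side. IFNAR1 and the interferon lambda receptor chain IFNLR1 were not well above background on either array. The median of the 6 was -0.65.

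All 12 signal transducers and transcription factors were detected, and none reached 1.5 in size. STAT2 and IRF9, which act together at type I target genes, each differed by -1.10, and the other detected probe of IRF9 by -1.32. IRF1 and IRF2 differed by -0.67 and -0.83. JAK1, JAK2, STAT3 and IRF3 differed by -0.32, -0.13, -0.31 and -0.23, each less than the SD between replicate spots. TYK2, IRF5 and IRF8 differed by 0.20, -0.03 and 0.07, and the other probe of TYK2 by -0.92. The median of the 12 was -0.32, and 10 were below 0, against 52.8% of all detected gene names.

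Genes that connect nucleic acid sensing to interferon production lay on both sides of 0. Of 15 on the array, 11 were detected, 5 below 0 in the probe used, against 52.8% of all detected gene names, and 6 above 0, of which 3 differed by less than the SD between replicate spots. Of 5 with another detected probe, 3 had all such probes on the side of the gene value. The lowest was DHX58, the third RIG-I-like receptor, with -1.33. TLR9, a receptor for bacterial and viral DNA, was the only gene of this list at 1.5 or more, with 1.59, against 6.61% of all detected gene names. Its Zebu value of -5.31 was also close to the lowest value well above background. The median was 0.00, and 0.01 over the 11 detected. With the mean over all probes of a gene, where genes dim on both arrays also drop out, it was -0.31.

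All 10 negative regulators of interferon signalling were detected, with a median of -0.42. USP18, which removes ISG15 from proteins and is itself interferon-induced, differed by -1.64. That spot is inside the dark patch of the crossbred array, where the nearest spots had a median of -1.07. Its other probe, outside the patches, differed by -1.03. RNF125, a ubiquitin ligase that acts on RIG-I and MDA5, differed by 2.45 in its brightest probe and by -0.53 in the other.

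Of 60 other type I interferon-stimulated genes, 53 were matched and 48 detected. Of the 48, 35 were below 0, against 52.8% of all detected gene names, and 9 were at -1 or lower, against 7.54%. At -1.5 or lower there were 2, against 2.05%, and at 1.5 or higher 0, against 6.61%. The median over the 53 was -0.34, and -0.64 over the 48 detected. OAS1Y, a synthetase of the signal that activates RNase L, differed by -1.67. RTP4 had the lowest value, -2.11, from a spot inside the dark patch, where the nearest spots had a median of -2.49, and its other probe outside the patches differed by -1.31. ISG20, an exonuclease of RNA, had the highest value, 1.42, and its other probe 1.16. In all, 2 were at 1 or higher, against 12.3%, ISG20 and EIF2AK2. EIF2AK2 differed by 1.34 and its other probe by 1.99. Of 29 of these genes with another detected probe, 27 had all such probes on the same side of 0 as the gene value.

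Among 24 genes induced by interferon gamma, all on the array were detected, 17 below 0, against 52.8% of all detected gene names, and 7 above, with a median of -0.40. At -1.5 or lower there were 3, against 2.05%, and at 1.5 or higher 1, against 6.61%. CXCL9 and CXCL11, chemokines that attract T cells, differed by -1.85 and -2.21, and the other probe of CXCL11 by -0.52. GBP1, a guanylate-binding GTPase read from an accession, differed by -1.81 with a spot in the dark patch, and its 4 other probes lay between -2.02 and 0.12. GBP7 had the highest value, 2.30, from its only probe.

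**Figure D3:**
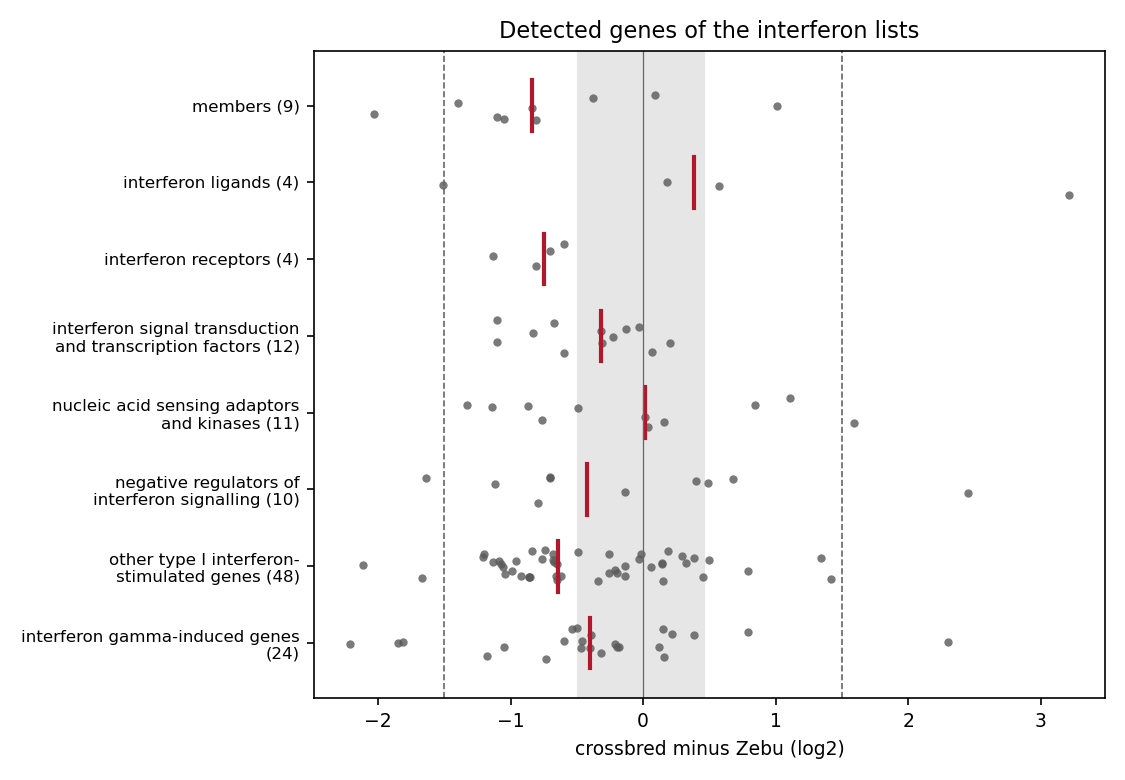
Crossbred minus Zebu difference (log2) of the detected genes of the members and of each interferon list, 1 point per gene, with the number of detected genes in brackets, the median of the detected genes as a red bar, the quartiles of all detected gene names shaded (-0.49 to 0.46) and dashed lines at 1.5 in size. The bars of the members, the receptors and the other type I interferon-stimulated genes lie below the shaded range, at -0.84, -0.75 and -0.64.

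The arrays also differed in markers of the cell types of the testis. In whole testis, fewer cells of a type and less RNA per cell cannot be told apart. All 11 spermatid markers were above 0, while 52.8% of all detected gene names were below 0. Of the 11, 8 were at 1.5 or higher, against 6.61% of all detected gene names, and the median of these markers was 1.86. Their summed normalized signal, in multiples of the 75th percentile, was 866 in crossbred and 392 in Zebu testis. Brightest refers here to the mean log2 signal over both arrays, and by that measure PRM1 was the brightest, although ODF2 was above it on the crossbred array. PRM1 had the lowest difference of the list, 0.36, and SPEM1 the highest, 2.92. All 7 Sertoli markers on the array were below 0, against 52.8% of all detected gene names, and 1 was at -1.5 or lower, against 2.05%, with a median of -1.08 and summed signals of 55.0 and 104. DHH was lowest with -1.53, FSHR highest with -0.45, and INHA was the brightest. Of 7 Leydig markers, 6 were below 0 and 2 at -1.5 or lower, against the same shares, with a median of -0.57 and summed signals of 89.6 and 134. HSD3B1 was lowest with -1.77, CYP11B1 highest with 0.01, and INSL3 was the brightest. Without INSL3 the summed signals of the 6 other Leydig markers were 13.3 and 31.0. The part of these cell types in the differences of the interferon-stimulated genes was not tested.

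The lists of immune, vascular and blood cells differed in direction. Macrophage markers had a median of 0.00 over 9, with summed signals of 29.9 and 21.5, from MSR1 with -1.55 to AIF1 with 1.95. C1QA was the brightest of them by the mean over both arrays, and CD163 passed the background limit in Zebu testis alone and gives no fold. T and NK cell markers had a median of -0.53 over 12, with summed signals of 8.71 and 10.8, and 8 of the 10 detected were below 0 in the probe used, against 52.8% of all detected gene names, with 0 at -1.5 or lower. Of 4 with another detected probe, 1 had all such probes on the side of its gene value. The other probes of CD3D differed by 0.13 and 0.55, and those of CD3G by -0.14 and 0.36, against -0.56 for either gene value. CD8B was lowest with -1.24 and GZMB highest with 2.64, although the other probes of GZMB reached down to -1.36. CD4 was the brightest, and NCR1 and GZMA were not well above background. All 6 B and plasma cell markers on the array were above 0, while 52.8% of all detected gene names were below 0. Of the 6, 2 were at 1.5 or higher, against 6.61%, and 2 differed by less than the SD between replicate spots. Their median was 0.68, with summed signals of 5.31 and 1.61. Values ran from POU2AF1 with 0.18 to MS4A1, which was at least 20.4-fold higher in crossbred testis in the probe used. The other probe of MS4A1 differed by 1.59. IGJ was the brightest of that list by the mean over both arrays, and the summed signals of the 5 other markers were 2.02 and 1.23. Endothelial markers had a median of 0.02 over 9, with summed signals of 5.92 and 3.18, and of 1.26 and 1.33 over the 8 markers other than CLDN5. Their lowest value was that of TIE1, at least 2.09-fold lower, and their highest that of CLDN5, 1.33, which was also the brightest. Of 5 red blood cell markers only HBA and HBM were detected, with -2.15 and 0.33, and the summed signals were 0.595 and 2.39, and 0.0706 and 0.0679 without HBA. HBB, ALAS2 and SLC4A1 were not well above background, and HBA was the brightest.

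**Figure D4:**
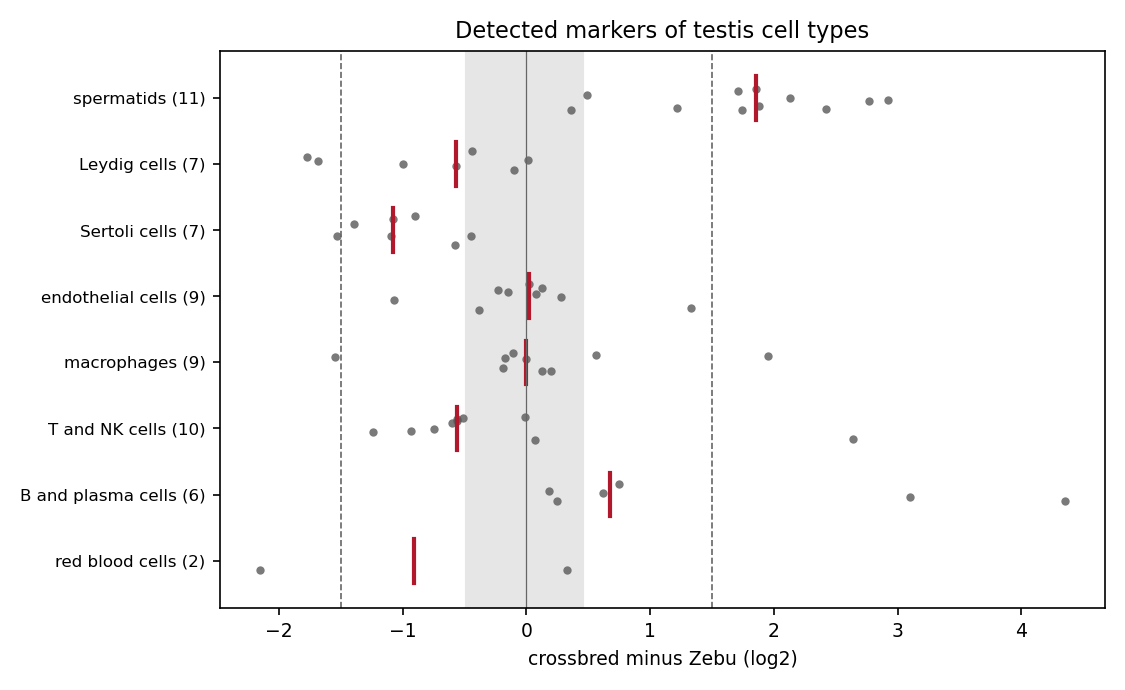
Crossbred minus Zebu difference (log2) of the detected markers of 8 testis cell types, 1 point per gene, with the number of detected markers in brackets, the median of the detected markers as a red bar, the quartiles of all detected gene names shaded and dashed lines at 1.5 in size. The spermatid bar lies at 1.86 and the Sertoli bar at -1.08.

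**Figure D5:**
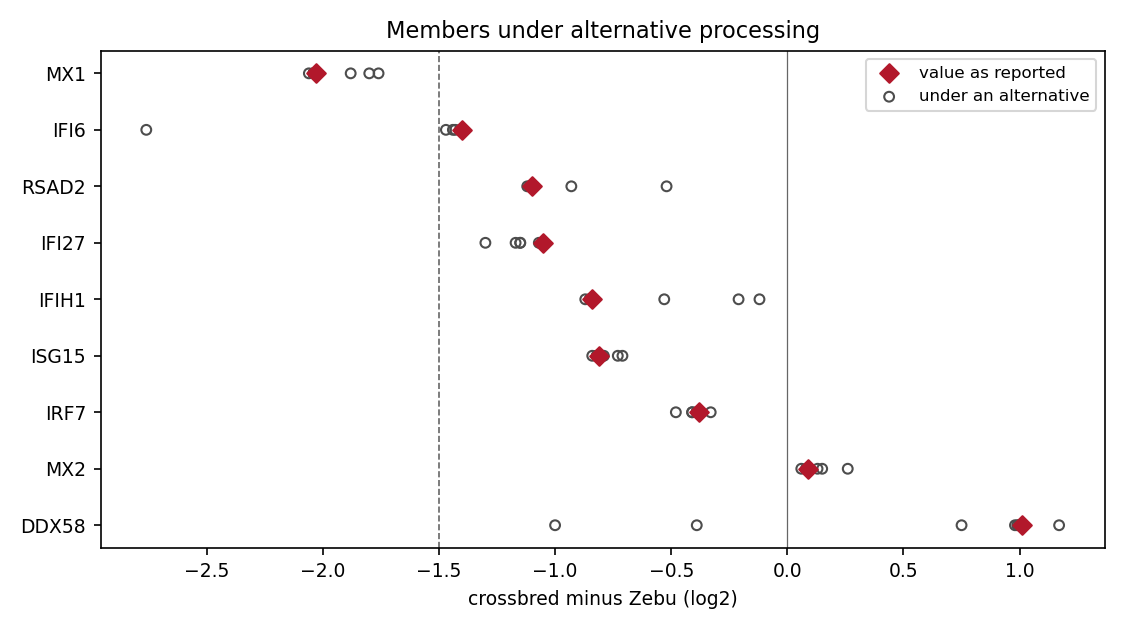
Crossbred minus Zebu difference (log2) of each member as reported (diamonds) and under each alternative way of processing the arrays (open circles), with a dashed line at -1.5. MX1 lay between -2.06 and -1.76 throughout, while DDX58 ran from -1.0 to 1.17.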

How the data were processed

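The authors deposited the processed signal of each spot, an intensity that Agilent Feature Extraction 11.5.1.1 had background-subtracted and detrended within the array, without normalization between arrays. The authors also deposited log2 values. For probes with 1 spot these equalled the log2 processed signal minus a constant for each array, within 2e-06, and their medians were -3.00 (crossbred) and -3.01 (Zebu). Of the 61657 non-control spots, 72.0% and 74.3% were well above background. Median signals were 126 and 129 and median local backgrounds 34.0 and 35.5. The deposited marks of other kinds, 0 or 1 for each spot, gave the outliers, of which 13 were left out.

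Spots of the same probe were averaged as log2 signals, less the array's 75th percentile of probe values. A probe counted as measured where all its spots were well above background. Where it was dim on 1 array, the brighter value was set against the higher of its own dim value and the lowest value well above background, as a bound. In medians, genes dim on both arrays were set to 0. Genes named are all members, all measured ligands and receptors, most of the signal transducers and transcription factors, in other interferon lists those at 1.5 or more in size with the highest and the lowest, and in cell type lists the highest and the lowest, beside the brightest and undetected markers. EIF2AK2 is named as well, as the other gene of its list at 1 or higher. Of 228 list entries, 192 were matched by name and 4 by accession through the RefSeq gene table of ARS-UCD2.0. The other 32 were not analysed here, apart from IFI44L, whose probes are given by their description. The members and lists were chosen with earlier results of these data known. Promoter motifs were not run. Computation used Python 3.11.15 with pandas 2.3.3, R 4.3.3 and limma 3.58.1 (normexp, offset of 50), and was tested on simulated data.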

Additional observations from a re-analysis of the deposited data

How the results depend on the processing

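Each member was recomputed under 10 alternatives of background correction, normalization, probe choice, filter and local trend, and DDX58 under 1 more that was chosen after seeing the data. Of these 91 values, 85 lay within the SD between replicate spots of the reported value, and 6 moved farther, in RSAD2, IFIH1, DDX58 and IFI6. The count of 85 is partly built in. Every member value came from a probe measured on both arrays and outside the patches, so the changes of filter and the patches left out could hardly move it. The median shift and the deposited values differ from the reported setting only by a constant for each array. The count of members below 0, also chosen after seeing the data, was 7 or 8, and the member median lay between -0.92 and, with normexp background correction, -0.53.

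With the local trend subtracted, 2 members were lower by 1.5 or more, since IFI6 passed as well, and 691 of all 24750 detected gene names were lower, against 508 as reported. At a threshold of 1, 4 members were lower and 1 was higher, and at a linear fold of 1.5, 6 were lower and 1 was higher, beside 5123 lower and 5191 higher of all 24751 detected gene names. With the mean over all probes the median of the ligands was 0.38, since the ligands dim on both arrays drop out there. The median of the negative regulators was -0.24 with normexp background correction and -0.70 with only probes well above background on both arrays. That of the gamma-induced genes was -0.24 with normexp, and that of the other type I interferon-stimulated genes ran from -0.64 to -0.28 over the alternatives. The cause was not tested. With normexp background correction 168 of all detected gene names were lower and 1027 higher, against 508 and 1635 as reported, and the cause was not tested. No paired analysis was possible because each group is 1 array.

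Among the gene values of the members, signal over background limits MX2, at 34.2 and 33.7, and RSAD2, at 42.2 and 94.6. It also limits the Zebu values of IFNB3 and TLR9. The SD between spots covers no difference between animals, which pooling hides. Both arrays were on 1 slide.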
